A study of Mus musculus with 6 samples.

Results

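The nuclear genes of respiratory complexes I, II and III and of ATP synthase were examined in the lungs of Cd-treated mice and their controls. A gene was a member when its probe set was paired with exactly 1 gene symbol in the array annotation and the symbol followed the naming of these complexes (Nduf followed by a, b, c, s or v and a number; Sdha to Sdhd; Uqcr; Atp5), pseudogenes left out. Where a gene had several probe sets, that with the highest mean over the 6 arrays was used. This gave 60 members of 22180 genes with 1 symbol, namely 32 of complex I, 4 of complex II, 7 of complex III and 17 of ATP synthase. All 60 were measured and tested without a filter on low values. Probe sets that carried several symbols were not used, so Ndufs6, Ndufb2, Ndufb4 and Uqcr10 were not analysed here.

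Male C57Bl6 mice entered the study at 8 weeks of age and were kept for 20 weeks, to an age of 28 weeks. The 3 Cd-treated mice drank water with 10 mg/L CdCl2, and the 3 control mice drank water without it (0 mg/L). Lungs were taken after airway resistance had been measured under anesthesia, a procedure that both groups shared. Each mouse gave 1 array, and each value is a robust multiarray average (RMA) on the log2 scale, so a difference between groups is the log2 of a ratio of signals. The tissue is whole lung, in which fewer cells of a type and less RNA per cell cannot be told apart.

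The respiratory chain lies in the inner mitochondrial membrane. Complex I takes electrons from NADH through its peripheral arm and pumps protons with its membrane arm, complex II takes electrons from succinate, and complex III passes electrons from ubiquinol to cytochrome c while pumping protons. ATP synthase lets the protons flow back through its membrane part, and the turning of its c ring drives ATP formation in the F1 head. Most subunits are encoded in the nucleus, and a small set is encoded by mitochondrial DNA. In the lung, alveolar type 2 cells and ciliated cells are known to hold many mitochondria. The cardiomyocytes that sheathe the large pulmonary veins of mice are known for this too.

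Of the 60 members, 55 had a lower mean on Cd arrays than on control arrays and 5 had a higher one, against a lower mean in 52.8% of all genes. The median log2 difference (Cd minus control) over the members was -0.29, within a range of -0.72 to 0.68, and that over all genes was -0.02. Few single members passed a test. At an unadjusted p under 0.05 from limma, 1 member was higher (Atp5g1, which encodes the c subunit of ATP synthase) and 1 was lower (Ndufs8, an iron-sulfur subunit of complex I). Over all genes the same threshold was passed by 1.19%, with 0.564% higher and 0.622% lower, and over all 41345 probe sets by 2.01%, with 1.05% higher and 0.96% lower. No probe set passed after Benjamini-Hochberg adjustment over all of them (0.0%), and the smallest adjusted p of any probe set was 0.992. The methods' t-test passed 4 members unadjusted, Atp5g1 higher and Atp5c1, Ndufa5 and Ndufb11 lower, against 2.61% of all genes. The 3 Cd arrays all lay below the 3 control arrays for 7 members (Ndufs8, Ndufa12, Ndufb11, Ndufb10, Ndufa5, Atp5c1 and Atp5e), against 3.33% of all genes. They all lay above them for Atp5g1, against 3.81% of genes, and 7.14% of genes did not overlap in either direction. These shares were not counted among genes of like brightness. A lower mean on Cd arrays was found in 79.7% of genes with a mean of 6 to 7 and 89.0% from 7 to 8. An exact two-sided permutation test of a single gene cannot give a p below 0.1 with 3 arrays against 3.

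**Figure D1:**
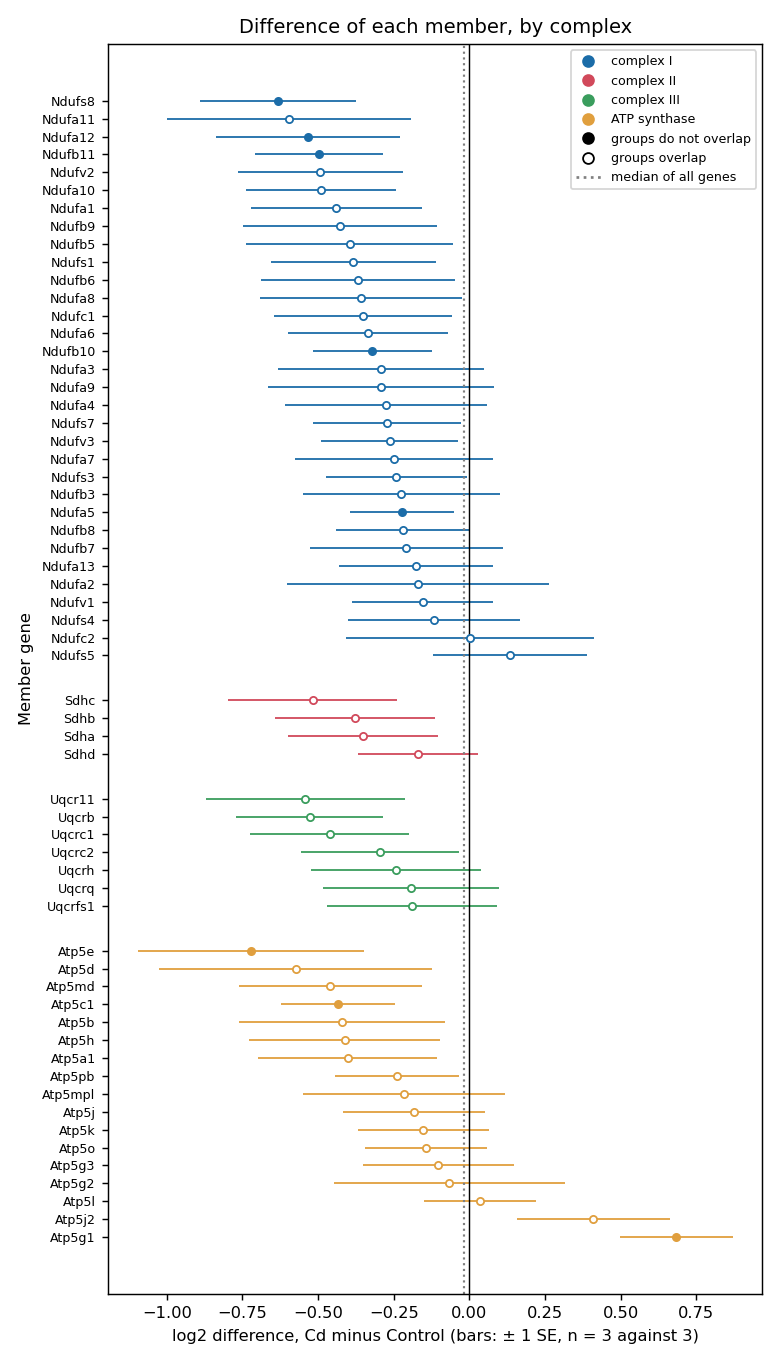
Log2 difference (Cd minus control, horizontal axis) of each of the 60 members, in order within its complex, with bars of 1 standard error from limma (n = 3 against 3). Filled points are the 8 members whose groups do not overlap, and the dotted line is the median of all genes; 55 points lie left of 0, and Atp5g1 at 0.68 and Atp5j2 at 0.41 lie farthest to the right.

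The shift of the members was uneven across arrays. Control replicate 3 was the highest array for 50 members (83.3%), against 34.3% of all genes. Cd replicate 3 was the lowest for 44 members (73.3%), against 26.2% of all genes. Both held together for 38 members. Cd replicate 1 lay below all control arrays for 13 members and Cd replicate 2 for 10. Control replicate 2 was the lowest array for 12 members, and for 40 members it lay below both Cd replicate 1 and Cd replicate 2. As a deviation from each member's mean over 6 arrays, the median member was 0.16, -0.22 and 0.49 on control replicates 1 to 3 and -0.02, 0.05 and -0.49 on Cd replicates 1 to 3. Cd replicates 1 and 2 therefore lay between control replicates 1 and 2. Without control replicate 3 and Cd replicate 3 the median over the members was 0.01, and 28 of 60 were negative. Over all genes it was then also 0.01, and 10682 of 22180 were negative.

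**Figure D2:**
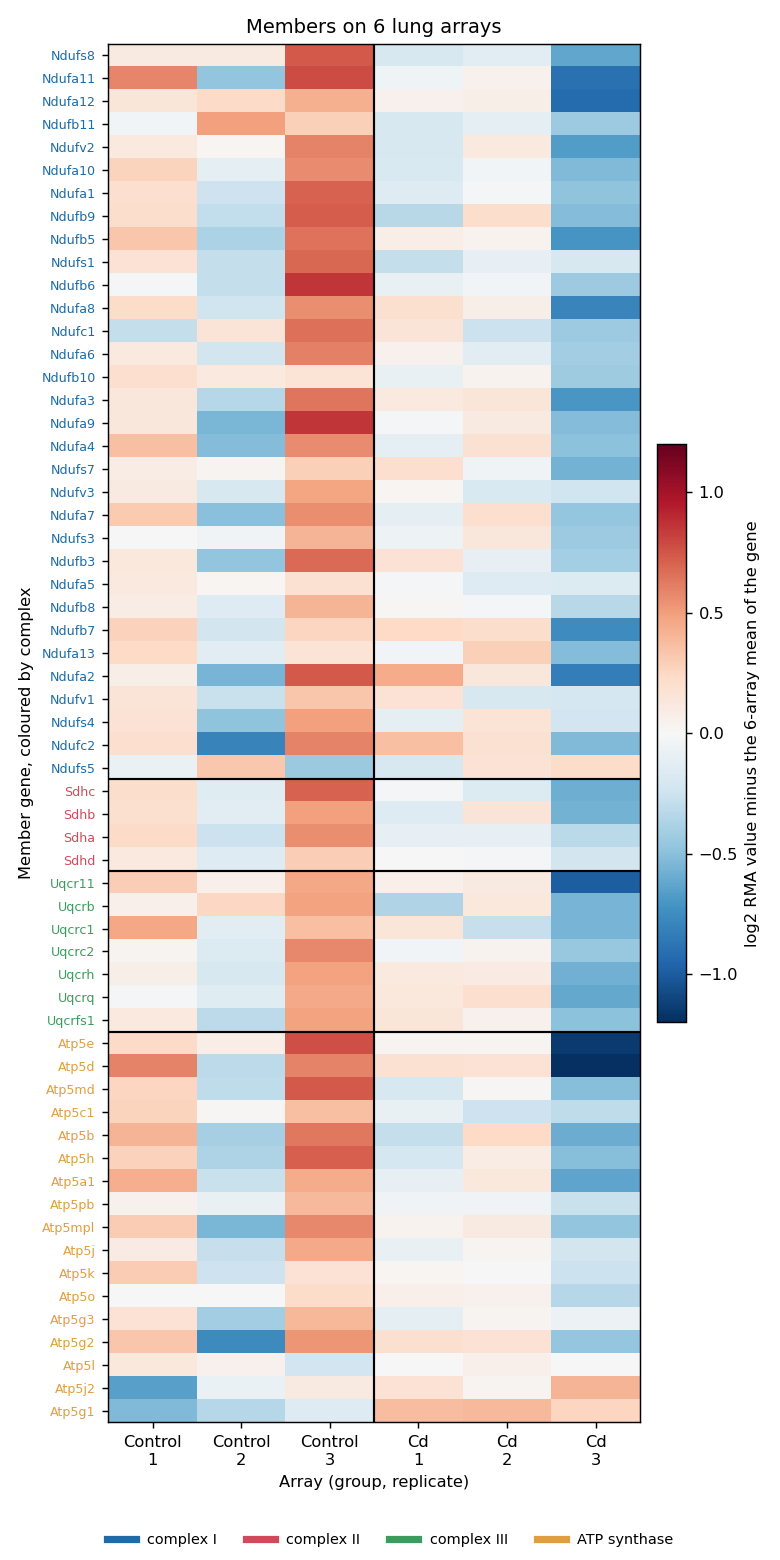
Each row is 1 of the 60 members and each column 1 of the 6 arrays; colour gives the log2 RMA value minus the member's mean over the arrays. Control replicate 3 is the reddest column (highest for 50 members), Cd replicate 3 is the bluest (lowest for 44), and the rows of Atp5g1 and Atp5j2 at the foot run the other way.

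Bright genes as a whole were shifted in the same way. Among the 531 genes with a mean of 8 or more, the median deviation was 0.40 on control replicate 3 and -0.39 on Cd replicate 3. Genes were therefore also set beside others of like brightness, by their mean log2 value over the 6 arrays. From 6 to 7, all 16 members were negative with a median of -0.28, beside -0.18 and 79.7% negative for the 3861 genes in that range. From 7 to 8, all 17 members were negative with a median of -0.27, beside -0.26 and 89.0% for 1141 genes. From 8 to 9, all 11 members were negative with a median of -0.41, beside -0.28 and 87.6% for 330 genes. From 9 upward, 6 of 8 members were negative with a median of -0.21, beside -0.12 and 70.6% for 201 genes. From 5 to 6, 5 of 7 members were negative with a median of -0.19, beside -0.03 and 54.5% for 7005 genes, and the single member below 5, Atp5j2, was positive, as were most genes there (34.9% of 9642 negative). In all, 42 of the 60 members lay below the median of the genes in their range, made up of 24 of 32 in complex I, 3 of 4 in complex II, 5 of 7 in complex III and 10 of 17 in ATP synthase. No test was made of this count.

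**Figure D3:**
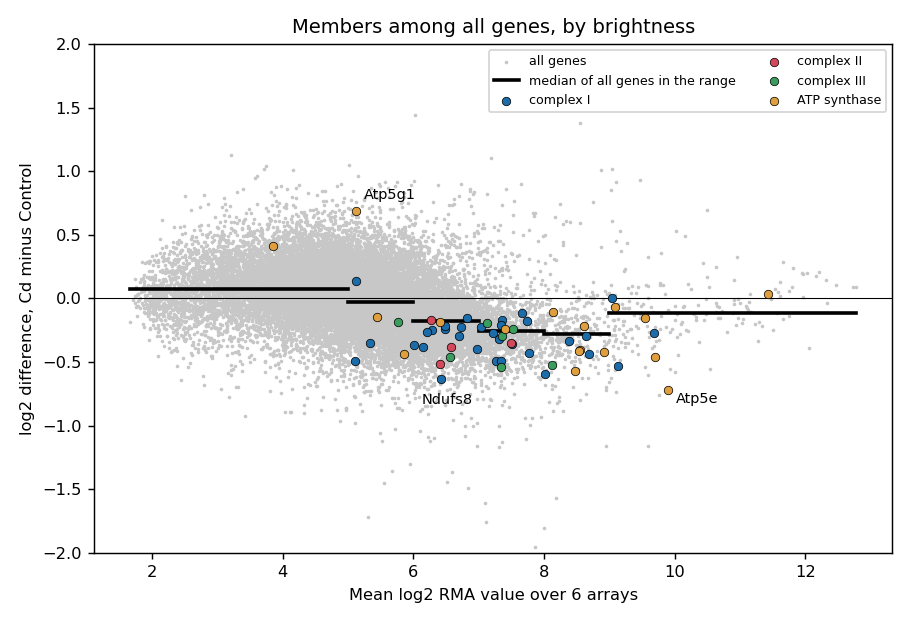
Log2 difference (Cd minus control) against the mean log2 RMA value over 6 arrays, for all genes (grey; 6 lie beyond the vertical axis) and the 60 members (coloured by complex). Black bars are the medians of all genes in each brightness range; the bars lie below 0 from a mean of 5 upward, and most members lie near or below them, with Atp5g1 above.

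Complex I made up the largest group. Its median difference was -0.29, with 30 of 32 members negative, and 23 of them were lowest on Cd replicate 3. The N module, where NADH is oxidized, had a median of -0.26 over 9 members and the Q module, which passes the electrons to ubiquinone, -0.26 over 4. The membrane arm was similar, with -0.32 over 10 members of its proximal part and -0.34 over 8 of its distal part. Ndufa4, which bears a complex I name but is placed with cytochrome oxidase, had a difference of -0.28. Of the subunits conserved from bacteria, called the core, 6 were measured, and all were negative with a median of -0.33.

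Ndufs8, the core subunit that carries a pair of iron-sulfur clusters on the way to ubiquinone, had values of 6.53, 6.53 and 7.16 on control arrays and 6.23, 6.29 and 5.80 on Cd arrays. The groups did not overlap, and control replicates 1 and 2 lay closest to Cd replicate 2. The group means were 6.74 ± 0.37 and 6.11 ± 0.27 (SD, n = 3 each). The difference of -0.63 (standard error 0.26) had an unadjusted p = 0.0431 and an adjusted p = 0.992 in limma. This p was 0.107 with the replicate number as a block, 0.0734 with the methods' t-test and 0.222 without both replicates 3, where the difference was -0.27. When single arrays were left out, it passed 0.05 only without control replicate 2.

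The other core subunits showed smaller differences, none at an unadjusted p under 0.05. Ndufv2, an iron-sulfur subunit beside the NADH site, had values of 7.39, 7.29 and 7.87 on control arrays and 7.08, 7.39 and 6.60 on Cd arrays, a difference of -0.49 (standard error 0.27). Its groups overlapped through Cd replicate 2. Ndufs1, which holds further iron-sulfur clusters, differed by -0.38, Ndufs7, which holds the last cluster before ubiquinone, by -0.27, Ndufs3 by -0.24 and Ndufv1, which binds NADH and flavin, by -0.15. For Ndufs1, Ndufs7, Ndufs3 and Ndufv1 the standard errors ranged from 0.23 to 0.27, and all 4 were highest on control replicate 3.

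Among the accessory subunits, which surround the core and are needed for its assembly and stability, Ndufa12 in the N module had values of 9.27, 9.36 and 9.55 on control arrays and 9.18, 9.20 and 8.20 on Cd arrays. Cd replicates 1 and 2 lay just below the lowest control array and Cd replicate 3 far below it. The difference was -0.53 (standard error 0.30), and a second probe set of Ndufa12 gave -0.58. Ndufa5 in the Q module had the narrowest spread of the non-overlapping members, with 7.15, 7.06 and 7.22 against 7.02, 6.88 and 6.87 and a difference of -0.22 (standard error 0.17). Ndufs4, an N module subunit whose loss in mice gives a Leigh-like disease, had 7.83, 7.18 and 8.15 against 7.55, 7.82 and 7.43, a difference of -0.12 (standard error 0.28) with overlap throughout.

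In the membrane arm, Ndufb11 of the distal part had values of 5.08, 5.60 and 5.40 on control arrays and 4.92, 4.99 and 4.68 on Cd arrays. Here control replicate 2, not 3, was the highest array, and the groups did not overlap. The difference was -0.50 (standard error 0.21, unadjusted p = 0.0516 in limma, and between 0.0357 and 0.207 over the alternatives). Ndufb10, also distal, had the most even control values, 7.51, 7.43 and 7.47, and values of 7.22, 7.35 and 6.88 on Cd arrays, a difference of -0.32 (standard error 0.20). In the proximal part, Ndufa10 differed by -0.49 (standard error 0.25), with 7.62, 7.24 and 7.92 on control arrays and 7.17, 7.32 and 6.82 on Cd arrays, and Ndufa1 by -0.44 (standard error 0.28). Both overlapped, Ndufa10 through Cd replicate 2 alone.

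Ndufa11, a subunit at the side of the membrane arm, gave the largest negative difference of that arm at -0.60, but with values of 8.61, 7.55 and 8.80 on control arrays and 7.97, 8.07 and 7.13 on Cd arrays the groups overlapped (standard error 0.40). A second, dimmer probe set of Ndufa11 gave -0.01, so the probe sets disagreed. Probe set positions were not used, so for genes with several probe sets, Ndufa11 and Atp5h among them, a probe set on a processed copy could not be told from one on the gene itself. Ndufs5, an accessory subunit on the side of the intermembrane space, was the largest exception in the other direction, with 5.04, 5.45 and 4.68 on control arrays, 4.93, 5.30 and 5.34 on Cd arrays and a difference of 0.14 (standard error 0.25). It was lowest on control replicate 3, where most members were highest. Ndufc2 differed by 0.00 with a standard error of 0.41.

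Complex II, succinate dehydrogenase, is encoded by 4 nuclear genes alone and also acts in the citric acid cycle. All 4 were negative, all were highest on control replicate 3 and lowest on Cd replicate 3, and none passed the test. Sdhc, a membrane anchor that binds heme and ubiquinone, had values of 6.62, 6.26 and 7.11 on control arrays and 6.38, 6.24 and 5.82 on Cd arrays, a difference of -0.52 with a standard error of 0.28. Sdhb, the iron-sulfur subunit, had 6.77, 6.45 and 7.07 against 6.42, 6.73 and 6.01, a difference of -0.38 (standard error 0.26). Sdha, the flavoprotein that oxidizes succinate, had 7.72, 7.23 and 8.05 against 7.39, 7.39 and 7.17, a difference of -0.35 (standard error 0.25). Sdhd, the other anchor, had 6.38, 6.11 and 6.56 against 6.26, 6.24 and 6.05, a difference of -0.17 (standard error 0.20). The groups of all 4 genes overlapped, because control replicate 2 was lower than at least 1 Cd array.

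Complex III was represented by 7 nuclear members, all negative with a median of -0.30. All 7 were lowest on Cd replicate 3, 6 were highest on control replicate 3, and none passed the test. Uqcrb, which lies near the ubiquinone site, had the smallest p, with 8.18, 8.37 and 8.61 on control arrays and 7.76, 8.25 and 7.57 on Cd arrays, a difference of -0.53 (standard error 0.24, unadjusted p = 0.0662 in limma). Only Cd replicate 2 reached into the control range. Uqcr11, a small accessory subunit, differed by -0.54 (standard error 0.33), with 7.64, 7.41 and 7.81 against 7.41, 7.46 and 6.36, so that Cd replicates 1 and 2 lay at or above control replicate 2. The core subunits Uqcrc1 and Uqcrc2 differed by -0.46 (standard error 0.26) and -0.30 (0.26), and the Rieske iron-sulfur protein Uqcrfs1 by -0.19 (0.28).

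ATP synthase was the most mixed of the complexes. Its median was -0.22, with 14 of 17 members negative and 3 positive. F1, with alpha and beta of the head and gamma, delta and epsilon of the rotor, had a median of -0.43 over 5 subunits. All 5 were negative, alpha and beta at -0.40 and -0.42 and gamma, delta and epsilon at -0.43, -0.57 and -0.72. The median was -0.21 over 4 subunits of the peripheral stalk, -0.15 over 5 of the membrane part and -0.07 over the 3 genes of the c ring. The median of the c ring turned positive under 2 of the normalizations, at 0.16 with cyclic loess and 0.07 with equal medians over bright probe sets, and that of the membrane part turned positive with cyclic loess, at 0.04. The c ring was also positive without control replicate 1 (0.08), control replicate 3 (0.18), Cd replicate 3 (0.15) and both replicates 3 (0.40), when the stalk lay at 0.03. Variance priors, the methods' t-test, the replicate block and the filter on dim probe sets cannot change this median. Under the normalizations, array weights and omissions of arrays, the F1 median was negative (-0.73 to -0.07). Differences between the parts were not tested.

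In F1, Atp5e had the most negative difference of all members at -0.72 (standard error 0.37, unadjusted p = 0.095 in limma). Atp5e encodes the small epsilon subunit at the base of the rotor. Its values were 10.14, 9.99 and 10.68 on control arrays and 9.94, 9.94 and 8.76 on Cd arrays. Cd replicates 1 and 2 lay only just below the lowest control array, and Cd replicate 3 lay far below the rest. A second probe set of Atp5e gave -0.61. Atp5c1, the gamma subunit that forms the rotor shaft, differed more evenly, with 6.13, 5.87 and 6.22 against 5.77, 5.61 and 5.55, no overlap and a difference of -0.43 (standard error 0.19, unadjusted p = 0.0549 in limma). Its p ranged from 0.00109 to 0.202 over the alternatives. Atp5a1 and Atp5b, the alpha and beta subunits that hold the catalytic sites, differed by -0.40 (standard error 0.30) and -0.42 (0.34). Atp5b had values of 9.33, 8.52 and 9.55 on control arrays and 8.64, 9.16 and 8.33 on Cd arrays, with wide overlap.

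In the c ring the members' values differed. In mammals, Atp5g1, Atp5g2 and Atp5g3 encode the same mature c subunit behind different import peptides. Atp5g1 had values of 4.60, 4.79 and 4.97 on control arrays and 5.50, 5.52 and 5.39 on Cd arrays. Every Cd array lay above every control array, and the spread within the Cd group was small (means 4.79 ± 0.19 and 5.47 ± 0.07, SD, n = 3 each). The difference was 0.68 with a standard error of 0.19, or 1.61-fold (unadjusted p = 0.00782 and adjusted p = 0.992, limma). It kept an unadjusted p under 0.05 under each of the 18 alternatives, including the omission of any array (difference 0.59 to 0.88, largest p 0.0399, with the replicate block), and the exact permutation p was 0.1, the smallest possible. The mean of Atp5g1 over the arrays lay between 5 and 6, a range in which all genes had a median difference of -0.03. Its signal was dim, near the median signal of an array (4.855 to 5.124). Its control values lay below 5, and genes with a mean below 5 had a median difference of 0.08.

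The other c subunit genes had smaller differences that did not pass the test. Atp5g2 had 9.42, 8.32 and 9.62 on control arrays and 9.28, 9.26 and 8.62 on Cd arrays, a difference of -0.07 with a standard error of 0.38. Its Cd arrays lay inside the control range, which control replicate 2 stretched downward. A second probe set of Atp5g2 gave -0.10. Atp5g3 had 8.32, 7.73 and 8.55 against 8.03, 8.18 and 8.08, a difference of -0.10 with a standard error of 0.25. The signs of both turned under cyclic loess (0.16 each) and under equal medians over bright probe sets (0.07 and 0.03). Taken within each array, Atp5g1 minus the mean of Atp5g2 and Atp5g3 was 0.77 higher on Cd than on control arrays. This contrast was chosen after the values were seen and largely repeats the difference of Atp5g1, so it adds no separate test.

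The stretches before the starts of the c subunit genes are shown because these genes code for 1 mature protein while 1 of them, Atp5g1, passed the unadjusted test (RefSeq, GRCm38.p6, the 250 bases before the start, 5′ to 3′ on the minus strand, which all of them use). Capitals mark a match to the palindromic motif of NRF1, a factor known for driving respiratory genes; the motif is GCGCATGC followed by GC. They lie at chr11:96075632-96075881 (Atp5g1), chr15:102671048-102671297 (Atp5g2) and chr2:73911327-73911576 (Atp5g3).
Atp5g1: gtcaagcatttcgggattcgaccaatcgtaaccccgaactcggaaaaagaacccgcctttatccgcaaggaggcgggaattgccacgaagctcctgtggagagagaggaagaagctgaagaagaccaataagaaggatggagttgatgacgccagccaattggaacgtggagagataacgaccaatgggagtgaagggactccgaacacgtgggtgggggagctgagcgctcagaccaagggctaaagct
Atp5g2: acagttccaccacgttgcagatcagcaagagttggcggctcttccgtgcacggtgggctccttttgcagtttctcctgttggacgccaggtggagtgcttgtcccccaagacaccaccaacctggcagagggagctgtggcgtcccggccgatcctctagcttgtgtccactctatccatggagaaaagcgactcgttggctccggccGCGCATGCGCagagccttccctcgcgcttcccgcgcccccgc
Atp5g3: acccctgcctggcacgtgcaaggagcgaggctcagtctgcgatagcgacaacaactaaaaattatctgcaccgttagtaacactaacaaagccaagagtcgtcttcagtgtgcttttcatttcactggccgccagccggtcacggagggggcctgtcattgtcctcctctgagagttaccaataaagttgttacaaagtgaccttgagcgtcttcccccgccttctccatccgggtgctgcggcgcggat

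Of these, only the stretch of Atp5g2 held the NRF1 motif. None of the 3 held the ETS motif CCGGAAG, the YY1 motif AAGATGGC, the Sp motif GGGCGG or the TATA box TATAAA on either strand. For 51 of the 60 members such a stretch was given, and motifs were counted by gene on both strands. The NRF1 motif was in 3 of them (5.88%; Atp5g2, Atp5k and Ndufa11), against 0.877% of 27025 genes. Its shorter form GCGCATGC, which the full motif contains, was in 7 (13.7%), against 2.56%. The ETS motif, bound by factors such as GABP, was in 10 (19.6%), against 7.83%. YY1 was at 1.96% against 1.83%, Sp at 35.3% against 35.4% and the TATA box at 11.8% against 14.3%. A match describes letters only, and no test was made of these shares.

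In the membrane part, Atp5j2, the f subunit, was the other member with a clear positive sign, at 3.20, 3.77 and 3.96 on control arrays and 4.02, 3.88 and 4.26 on Cd arrays. Its groups overlapped through Cd replicate 2, the difference of 0.41 had a standard error of 0.25, and its mean of 3.64 on control arrays and 4.05 on Cd arrays is a dim signal. Atp5l, the g subunit, had 11.56, 11.49 and 11.21 against 11.43, 11.50 and 11.43, a difference of 0.03 with a standard error of 0.18. It was lowest on control replicate 3. Atp5md differed by -0.46, Atp5mpl by -0.22 and Atp5k by -0.15. In the peripheral stalk, the differences were -0.41 for Atp5h, -0.24 for Atp5pb, -0.18 for Atp5j and -0.14 for Atp5o. A second, dim probe set of Atp5h gave -0.12.

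**Figure D4:**
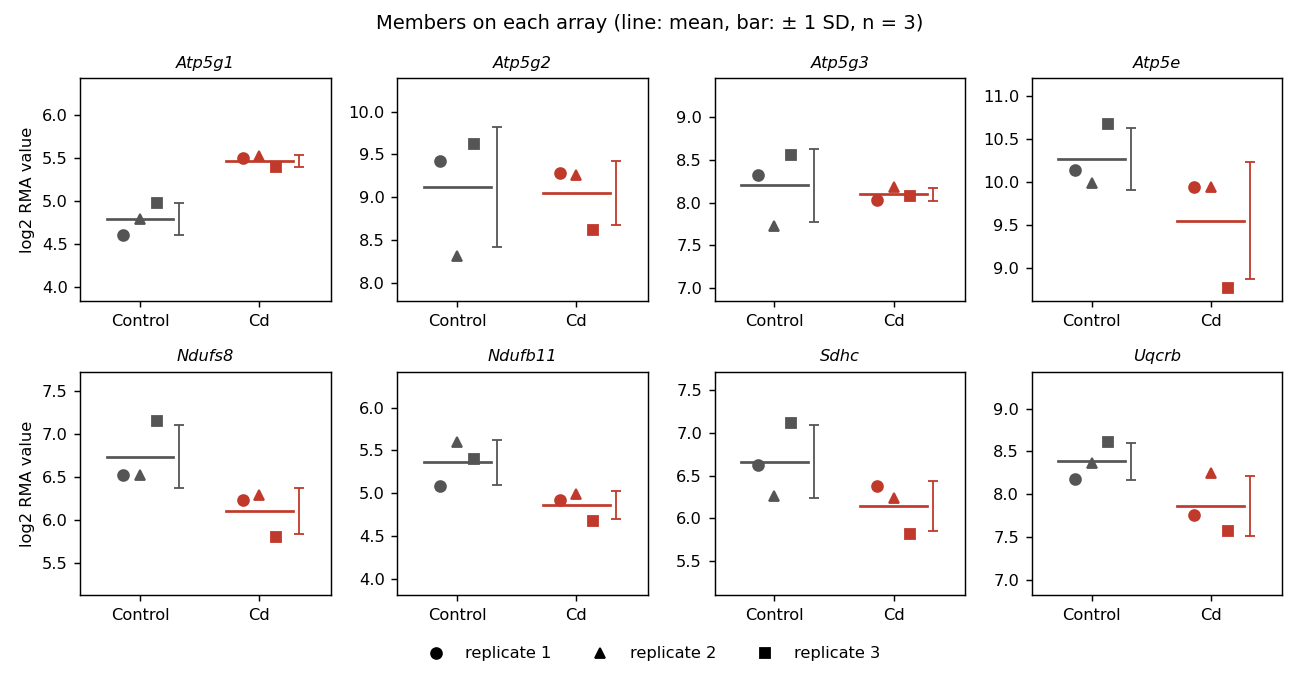
Log2 RMA values (vertical axis, own scale in each panel) of 8 members on the control and Cd arrays, with marker shapes for replicates 1 to 3, lines for group means and bars of 1 SD (n = 3). Every Cd value of Atp5g1 lies above its control values, whereas Atp5e, Ndufs8 and Ndufb11 lie below; Cd replicate 3 is the lowest point in Atp5e, Ndufs8, Ndufb11, Sdhc and Uqcrb.

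The nuclear members could be set beside the subunits that mitochondrial DNA encodes for the same complexes and for cytochrome oxidase. Of 13 such genes 10 were measured, and all 10 had a positive difference, with a median of 0.19, the opposite sign to the nuclear members. None passed the test. Their values were very bright, from 11.26 to 12.86. All genes with a mean of 9 or more had a median of -0.12, with 70.6% negative. Probe set positions were not used, so a nuclear copy could not be told from a mitochondrial gene. ND2, a membrane subunit of complex I, had 11.46, 11.81 and 11.26 on control arrays and 11.81, 11.67 and 11.90 on Cd arrays, a difference of 0.28 (standard error 0.21), and ND5, a proton-pumping subunit, had a difference of 0.21 (0.20). As a group they were lowest on control replicate 3, with a median deviation of -0.36, and highest on Cd replicate 3 and control replicate 2, with 0.16 each. Their median stayed positive in every alternative run but shrank to 0.02 without both replicates 3.

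Other mitochondrial gene groups also had negative medians. The 9 measured ubiquitous subunits of cytochrome oxidase had a median of -0.34, all negative and none at an unadjusted p under 0.05, the smallest p being that of Cox7c (-0.58, standard error 0.26), followed by Cox7b (-0.34, standard error 0.23). Cytochrome c1 (Cyc1) and cytochrome c (Cycs) differed by -0.41 and -0.30. All 11 measured genes of the citric acid cycle were negative with a median of -0.42, none passed the test, and fumarase (Fh1, -0.47, standard error 0.21) and the isocitrate dehydrogenase subunit Idh3b (-0.48, standard error 0.22) did not overlap between groups. Of 6 carriers and channels of adenine nucleotides and phosphate, all were negative (median -0.32) and 1 was lower at an unadjusted p under 0.05, the ADP/ATP carrier Slc25a4 (-0.60, standard error 0.23), while the channel Vdac2 was next (-0.42, standard error 0.32). Of 68 mitochondrial ribosomal proteins, 58 were negative (median -0.20), and 1 was higher at that threshold, Mrps14 (0.59, standard error 0.23). The calls of Slc25a4 and Mrps14 were lost with the replicate block (p of 0.0946 and 0.0691 in limma), the methods' t-test and cyclic loess, among other alternatives. Mrps2 followed in order of p (-0.46, standard error 0.21). The arrays of the groups also did not overlap for Slc25a4, Mrps2, Mrpl49 and Mrps15 (lower) and Mrps14 (higher). Of all genes, 3.33% did not overlap and were lower, and 3.81% were higher. Without both replicates 3 the medians of the 5 mitochondrial gene groups above lay between -0.05 and 0.13.

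Assembly factors and regulators had negative medians too. Of 13 assembly factors of complex I, 10 were negative with a median of -0.12 and none passed the test. This direction rested on control replicate 3, without which 2 of 13 were negative and the median was 0.07, and it also turned with equal medians over bright probe sets (0.01). Among them Ndufaf2, a chaperone of complex I, had the largest difference (-0.76, standard error 0.36) without overlap between groups, and Tmem126b had -0.23. Of 12 assembly factors of complexes II and III and ATP synthase, 11 were negative with a median of -0.15, led by Uqcc3 (-0.33, standard error 0.23) and Uqcc2 (-0.54, standard error 0.41), and the median was 0.09 without both replicates 3. The inhibitor of ATP synthase, Atpif1, differed by -0.03. Of 11 regulators of mitochondrial biogenesis none passed the test and 9 were negative (median -0.23). Esrra, a nuclear receptor that drives respiratory genes, had the smallest p with a positive difference of 0.37 (standard error 0.20). Yy1 had -0.42 (standard error 0.29), and Gabpb1, without overlap between groups, -0.30 (standard error 0.21).

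Markers of muscle moved with the groups and with single arrays, and their part in the results above was not tested. The 3 subunits of cytochrome oxidase that are made in heart and skeletal muscle were all lower at an unadjusted p under 0.05 from limma. Differences were -1.13 for Cox7a1 (standard error 0.28), -1.61 for Cox8b (0.41) and -1.0 for Cox6a2 (0.34). The call of Cox6a2 was lost with the replicate block (p of 0.0511 in limma), the methods' t-test and cyclic loess, among other alternatives. All 10 cardiac markers were negative with a median of -0.72, and 5 were lower at that threshold (Sln, Csrp3, Myl7, Nppa and Myl4). That count was 2 with the replicate block, the methods' t-test or cyclic loess and without control replicate 1 or Cd replicate 1, 3 without Cd replicate 3, and at most 8 under the other alternatives. Their mean log2 level was 8.90, 8.25 and 8.33 on control arrays and 7.05, 8.02 and 7.51 on Cd arrays, lowest on Cd replicate 1. No respiratory member was lowest on Cd replicate 1 or 2, against 13.3% and 10.2% of all genes. Without both replicates 3 the cardiac median was -0.85, that of the members 0.01 and that of all genes 0.01. Whether cardiac muscle content bears on the members was not tested. Skeletal muscle markers stood at 8.21 on control replicate 3 and between 4.99 and 5.33 on the other arrays, and squamous epithelial markers at 6.09 and between 4.05 and 4.32. No gene of either list passed the test, and 9 of 10 and 3 of 4 were negative, with medians of -0.99 and -0.56 that were 0.06 and 0.21 without control replicate 3.

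Markers of alveolar type 2 and club cells had high mean levels on every array, with club cell means of 11.23 to 11.92. Alveolar type 2 markers had means of 10.07 to 10.90 on control arrays and 10.21 to 10.46 on Cd arrays, with all 4 genes negative (median -0.13). Alveolar type 1 markers lay at 7.16 to 8.38, ciliated cell markers at 6.0 to 7.19 and macrophage markers at 5.40 to 6.11. Alveolar type 1 markers (median -0.29), club cell (-0.16), ciliated cell (-0.06), endothelial (-0.42), macrophage (-0.33), fat (-0.22) and brown fat markers (-0.05) had no gene at an unadjusted p under 0.05. The median signal of an array was 4.855 to 5.124. Pairs of arrays correlated at 0.8197 to 0.9706, and the lowest pair was control replicate 3 with Cd replicate 3. The number of arrays limits the precision of every value.

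The size of the shift depended on how arrays were brought to a common scale. The median over the members was -0.11 with cyclic loess (43 of 60 negative) and -0.19 after quantile normalization again. It was -0.16 with equal medians over bright probe sets and -0.36 with equal medians over all probe sets. With cyclic loess the median of all genes was -0.01, and 11535 of 22180 were negative. Equal medians over bright probe sets moved the median of all genes as well, from -0.02 to 0.12. Leaving out single arrays gave medians between -0.52 (without control replicate 2) and -0.11 (without control replicate 3). Without control replicate 2, 11 members passed the unadjusted threshold, beside 198 genes higher and 441 lower of 22180.

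**Figure D5:**
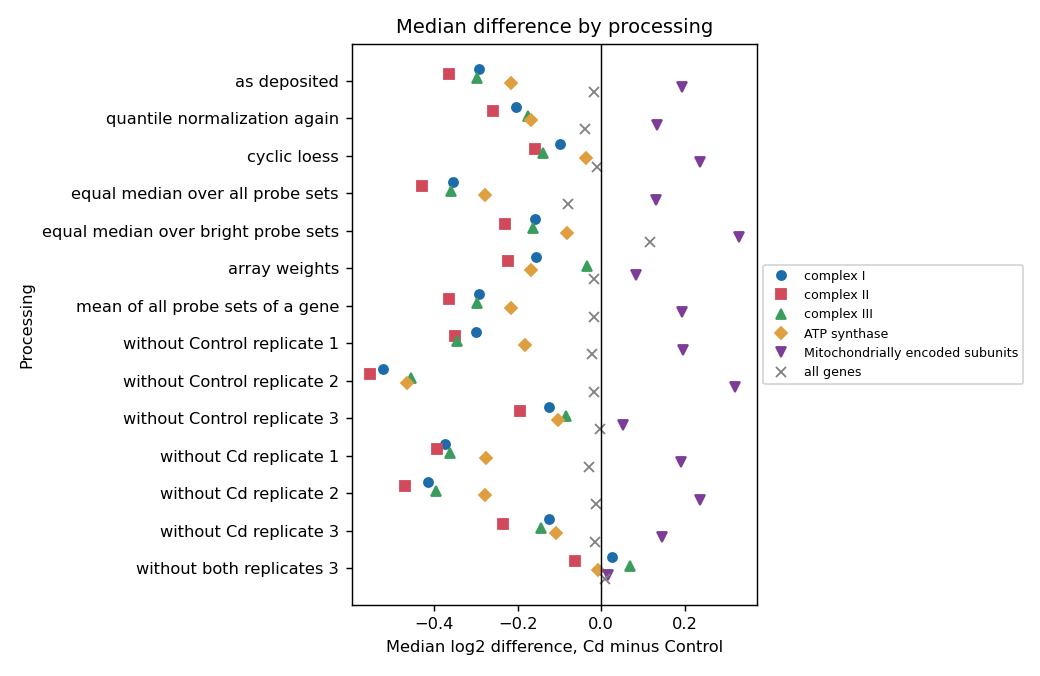
Median log2 difference (Cd minus control, horizontal axis) of each complex, of the mitochondrially encoded subunits and of all genes under the processing named at the left. Every complex lies left of 0 in every row but the last, where, without both replicates 3, complexes I and III lie at 0.03 and 0.07; the mitochondrially encoded subunits lie right of 0 throughout.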

How the data were processed

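RNA from 6 lungs was amplified with a NuGEN kit and measured on Affymetrix Mouse Gene ST arrays. The deposited values are log2 RMA values, made by the authors in R with oligo (background correction, quantile normalization and median polish of the probes of a probe set). The processing notes of the submitters list RMA and limma and give no version. Such values carry no detection call, so a dim gene cannot be told from background.

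The deposited log2 values of all 41345 probe sets were fitted in R 4.3.3 with limma 3.58.1 (group as the only term, moderated test, 3.058 prior degrees of freedom), with Benjamini-Hochberg adjustment across the whole table. The steps were tested on simulated data. Symbols came from the array's annotation table, in which 23521 probe sets had 1 symbol, 1820 several and 16004 none. All 60 members were matched to RefSeq by gene number.

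The members, their complexes and all lists were chosen with earlier results of these data known. Named members were, in each arm of complex I, in complex III and in ATP synthase, the 4 with the smallest p and the largest difference in each direction, all of complex II, the c subunit genes, alpha and beta subunits, core subunits and those without overlap; in each related list, the 2 genes with the smallest p. Cardiac markers, further subunits of ATP synthase, Ndufa4, Ndufc2, Cox6a2 and the contrast between the c subunit genes were added after their values were seen.

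The labels name no pairing of the mice by replicate number. Deviations of same-numbered arrays from their group means correlated at -0.4908, 0.0708 and -0.5131. These correlations cannot show whether a pairing existed, because each deviation depends on the other arrays of its group. Alternatives were other variance priors, the methods' t-test, the replicate block, 4 normalizations, array weights, a filter on dim probe sets, averaging a gene's probe sets, and leaving out arrays.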

Additional observations from a re-analysis of the deposited data

How the results depend on the processing

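With the deposited values, 2 members passed an unadjusted p under 0.05 in limma, 1 higher and 1 lower, beside 1.19% of all genes. Both counts were the same with the robust prior and the filter on dim probe sets. The trended prior, equal medians over bright probe sets and the replicate block each called 1 (0 lower), and the block called 449 probe sets in place of 831. Over 22180 genes these settings called, in that order, 134 higher and 128 lower, 272 and 50, and 22 and 47. Cyclic loess and quantile normalization again called 2 lower, beside 147 and 162 of the genes. The methods' t-test called 4 (3 lower), beside 362 genes higher and 217 lower. Averaging a gene's probe sets called 5 (4 lower), beside 193 genes higher and 222 lower. Array weights called 12 members (2 higher, 10 lower), near the share over all genes, of which 2185 were higher and 2404 lower of 22180. With these weights 10119 of 41345 probe sets passed unadjusted and 903 adjusted. Leaving out arrays gave 1 to 11 calls, 0 to 10 of them lower, the most without control replicate 2. In that setting 198 genes were called higher and 441 lower. Negative members numbered 28 (without both replicates 3, beside 10682 of 22180 genes) to 56 when arrays were left out. The median over all members then ranged from -0.522 to 0.012, and ranges were -0.522 to 0.026 in complex I, -0.553 to -0.063 in complex II and -0.454 to 0.069 in complex III and -0.465 to -0.009 in ATP synthase, each lowest without control replicate 2 and highest without both replicates 3. The labels name no pairing by replicate number. The block lost Ndufs8, Slc25a4, Mrps14 and Cox6a2, and cardiac markers called lower numbered 2 in place of 5. ATP synthase had a median of -0.036 with cyclic loess, with 9 of 17 members negative, against -0.217 as deposited. Slc25a4 also lost the call without control replicate 1 or 3 or Cd replicate 1 or 3 (p of 0.0582 to 0.102 in limma). Mrps14 lost it without control replicate 1 or 2 or Cd replicate 2 or 3 (0.0879 to 0.126). Cox6a2 lost it without control replicate 1 or 3 or Cd replicate 1 (0.0558 to 0.069). All of them lost it with the methods' t-test (p of 0.0501, 0.0516 and 0.0644) and with cyclic loess (p of 0.0729, 0.0743 and 0.0692 in limma). Slc25a4 lost it with equal medians over bright probe sets, array weights and without both replicates 3 (p of 0.0732, 0.0511 and 0.179 in limma). Mrps14 lost it after quantile normalization again and with equal medians over all probe sets (0.0709 and 0.0828), and Cox6a2 without both replicates 3 (0.0934).

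Some named genes that did not pass the test changed sign. With cyclic loess, the difference was 0.135 for Ndufs4, 0.158 for Atp5g2, 0.156 for Atp5g3, 0.042 for Ndufv1 and 0.213 for Atpif1, which was 0.1 after quantile normalization again. With equal medians over bright probe sets, it was 0.017 for Ndufs4, 0.069 for Atp5g2, 0.031 for Atp5g3 and 0.101 for Atpif1, and with array weights 0.071 for Ndufs3. Leaving out arrays gave -0.465 to 0.4 for Atp5g2, -0.339 to 0.082 for Atp5g3, -0.387 to 0.181 for Ndufs4, -0.127 to 0.331 for Ndufs5, -0.392 to 0.199 for Uqcrfs1, -0.454 to 0.069 for Uqcrc2, -0.288 to 0.004 for Sdhd, -0.325 to 0.043 for Ndufv1, -0.367 to 0.057 for Ndufs3, -0.442 to 0.016 for Ndufs7, -0.433 to 0.229 for Tmem126b, -0.799 to 0.127 for Uqcc2, -0.191 to 0.259 for Atpif1 and -0.679 to 0.014 for Vdac2. The cause of these changes was not tested.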
